A study of Mus musculus with 6 samples.

Results

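Cd14, Tlr2, Tlr4, Myd88, Tnf, Nfkb1, Nfkbia, Nfkbiz, Rela and Tnfaip3 are 10 genes of Toll-like receptor (TLR) sensing, tumour necrosis factor and feedback on the transcription factor NF-kB. They were taken by name from a panel of 750 tumour-related genes. All 10 were on the panel, and all 10 had a mean count of at least 10 and so were among the 627 genes tested. Expression was measured in 6 mammary tumours of female mice, each grown from 300000 implanted 4T1 cells, a mouse mammary carcinoma line. Of these, 3 came from mice given TTFM, a set of Thai traditional medicine extracts, from 2 weeks after implantation, and 3 were labelled saline. Both groups thus shared the same single tumour line, fat pad site and sex. The sources used here give neither the strain and age of the mice nor the make-up, dose and duration of TTFM. Tumours are numbered in the labels with no word on whether each had its own mouse, so p-values cover only the spread among these 6 samples, part of which may be technical.

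Toll-like receptors recognise microbial products and molecules released by damaged cells, and most of them signal through the adaptor MyD88 to NF-kB. In resting cells NF-kB, often a pair of RELA and p50, is held in the cytoplasm by inhibitor proteins, and signalling destroys these inhibitors. Among the genes that NF-kB then switches on are Tnf, whose product signals back to NF-kB, and genes for its own brakes, such as Nfkbia and Tnfaip3. In tumours these genes are used by infiltrating myeloid cells and by the cancer cells themselves.

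Totals ran from 333515 to 449460 counts in TTFM tumours and from 400274 to 422841 in saline tumours. Values below are normalised counts, meaning counts scaled to a common library size, and differences are log2 fold changes, TTFM over saline, with their standard error (SE). Of the 10 tumour cell markers listed, the panel held Cdh1 and Erbb2, which summed to 1842 to 2233 in TTFM and 1689.5 to 2244 in saline tumours. In edgeR's quasi-likelihood test 0 of 627 genes (0%) passed an adjusted p of 0.05, and so did 0 of the 10 genes. With an unadjusted p under 0.05 there were 38 genes in edgeR's test (6.06%). DESeq2 called 1 gene (0.159%), which was not among the 10, and limma with trend called 0 (0%). The differences given for single genes below are therefore ones that did not pass the test.

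The comparison asks how expression in the tumours differed with TTFM. Cd14, Tnf, Nfkbiz and Tlr2 lay furthest on the lower side in TTFM tumours, at log2 fold changes of -1.73, -1.08, -0.90 and -0.83, and the receptor Tlr4 and the adaptor Myd88 lay on the higher side, at 0.25 and 0.21. Of the 10 genes, 8 had negative log2 fold changes, with a median of -0.44, where the median of all tested genes was -0.00045 and 50.1% were negative. At an unadjusted p under 0.05 stood 3 of the 10, Cd14, Nfkbiz and Tnf, all lower in TTFM tumours, where 4.47% of tested genes did so in that direction. Only Nfkbiz was lower in every TTFM tumour than in every saline tumour, where 4.31% of tested genes separated that way, and only Myd88 was higher in every TTFM tumour, where 3.99% did.

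**Figure D1:**
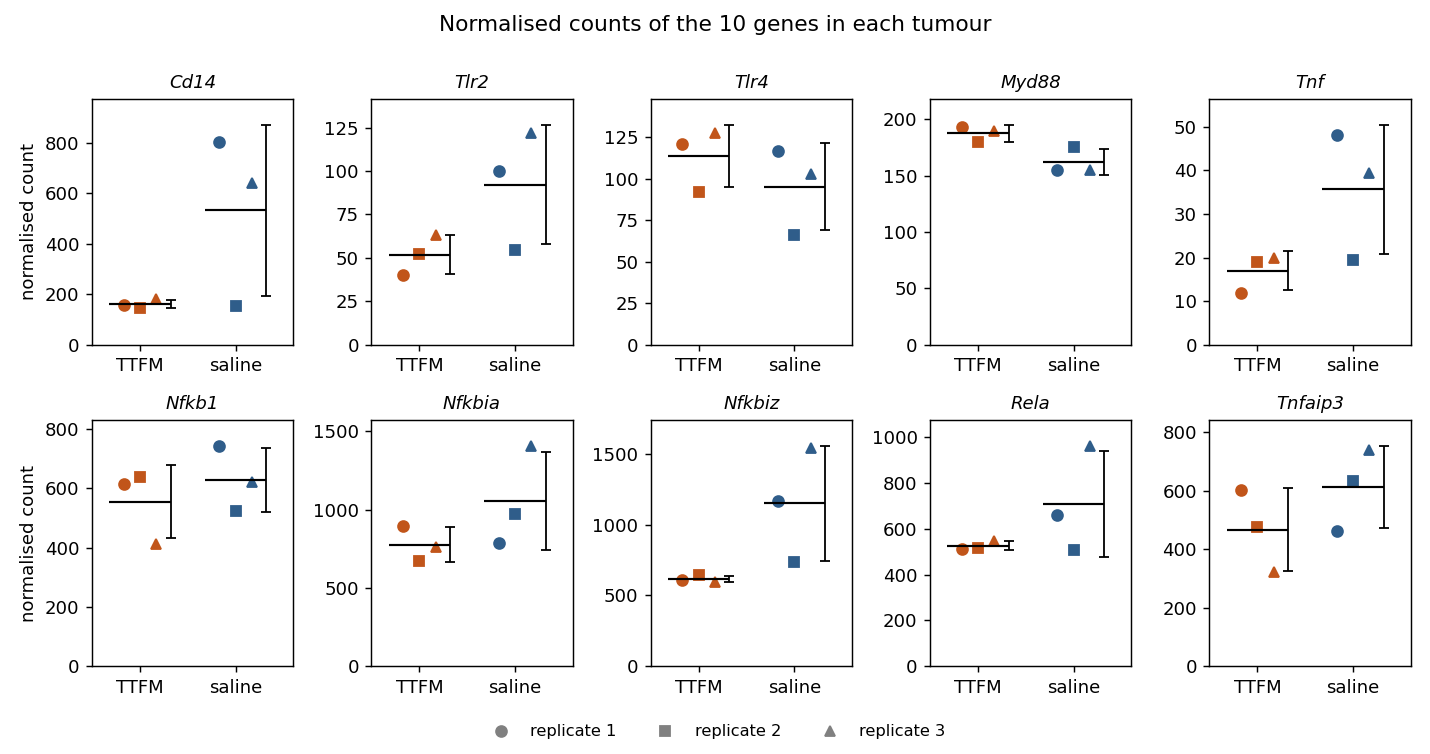
Normalised counts of the 10 genes in 3 TTFM tumours (left, orange) and 3 saline tumours (right, blue), with marker shapes for replicates, horizontal lines for means and bars for the SD; each axis starts at 0. Cd14 was between 145 and 180 in the TTFM tumours and in saline replicate 2 (154), and at 640.0 and 803 in the other saline tumours.

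Cd14 encodes a receptor of monocytes, macrophages and neutrophils that binds bacterial lipopolysaccharide and passes it to TLR4. It had 157, 145 and 179.8 normalised counts in TTFM replicates 1 to 3, against 803, 154 and 640.0 in saline replicates 1 to 3. The TTFM tumours were close together and low, 2 saline tumours were high, and saline replicate 2 lay inside the TTFM range. The means were 161 ± 17.5 in TTFM and 532 ± 338 in saline tumours (SD, n = 3 each), a log2 fold change of -1.73 (SE 0.53, edgeR adjusted p = 0.582). In whole tumours fewer cells of a type and less RNA per cell cannot be told apart.

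Tlr2 encodes the receptor for bacterial lipoproteins. Its normalised counts were 40.3, 52.1 and 63.3 in TTFM tumours, against 100.1, 54.6 and 122 in saline tumours. The arrangement was that of Cd14 on a smaller scale, with saline replicate 2 between TTFM replicates 2 and 3 and the other saline tumours above all TTFM tumours. The log2 fold change was -0.83 (SE 0.37), with a 95% interval of -1.68 to 0.015 (edgeR adjusted p = 0.802).

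Tlr4, the lipopolysaccharide receptor that CD14 serves, was arranged differently. It had 121, 92.2 and 128 normalised counts in TTFM tumours, against 116, 66.0 and 103 in saline tumours. The groups overlapped, and the lowest value was that of saline replicate 2. The log2 fold change was 0.25 with a 95% interval of -0.42 to 0.92 (edgeR adjusted p = 0.940). Without saline replicate 2 it was 0.049 and without saline replicate 1 it was 0.46.

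Myd88 encodes the adaptor that TLR2, TLR4 and the interleukin-1 receptor share. It varied least of the 10 genes over the 6 tumours, with 194, 179 and 189.8 normalised counts in TTFM tumours and 155, 175 and 155 in saline tumours. All TTFM values lay above all saline values, yet TTFM replicate 2 and saline replicate 2 differed by little, and the groups overlapped when scaled to the total count, to the upper quartile or with the filter at a mean count of 50. Means were 188 ± 7.31 in TTFM and 162 ± 11.6 in saline tumours (SD, n = 3 each), a log2 fold change of 0.21 with a 95% interval of -0.22 to 0.64.

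Within a tumour, Cd14 and Tlr2 were also set against Tlr4, as log2 ratios centred on their mean over the 6 tumours. This cancels what a tumour does to both genes alike. The centred ratio of Cd14 to Tlr4 was -0.98, -0.71 and -0.87 in TTFM tumours, against 1.42, -0.14 and 1.27 in saline tumours. For Tlr2 to Tlr4 it was -0.97, -0.21 and -0.40 in TTFM tumours, against 0.39, 0.34 and 0.85 in saline tumours. In both ratios saline replicate 2 lay above all TTFM tumours. That tumour had the lowest Tlr4 of all 6, while its Cd14 and Tlr2 counts lay inside the TTFM range. All other ratios formed overlapped between the groups. For Cd14 to Csf1r, a macrophage marker, saline replicate 2 was the lowest tumour (-1.08). The pairs with Tlr4 were picked after the values were seen, and their difference was not tested.

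Tnf encodes tumour necrosis factor, an inflammatory cytokine made mainly by macrophages. It was the least abundant reading of the 10, with raw counts of 12, 19 and 18 in TTFM tumours and 50, 17 and 46 in saline tumours. The exact Poisson 95% intervals, which cover counting error only, ran from 6.20 to 21.0 for the lowest count and from 37.1 to 65.9 for the highest. After scaling, Tnf had 11.8, 19.04 and 19.98 normalised counts in TTFM tumours, against 48.1, 19.3 and 39.5 in saline tumours. Saline replicate 2 lay inside the TTFM range, as for Cd14 and Tlr2. The log2 fold change was -1.08 (SE 0.42, edgeR adjusted p = 0.725). With values under 20 raised to 20, it was -0.88.

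**Figure D2:**
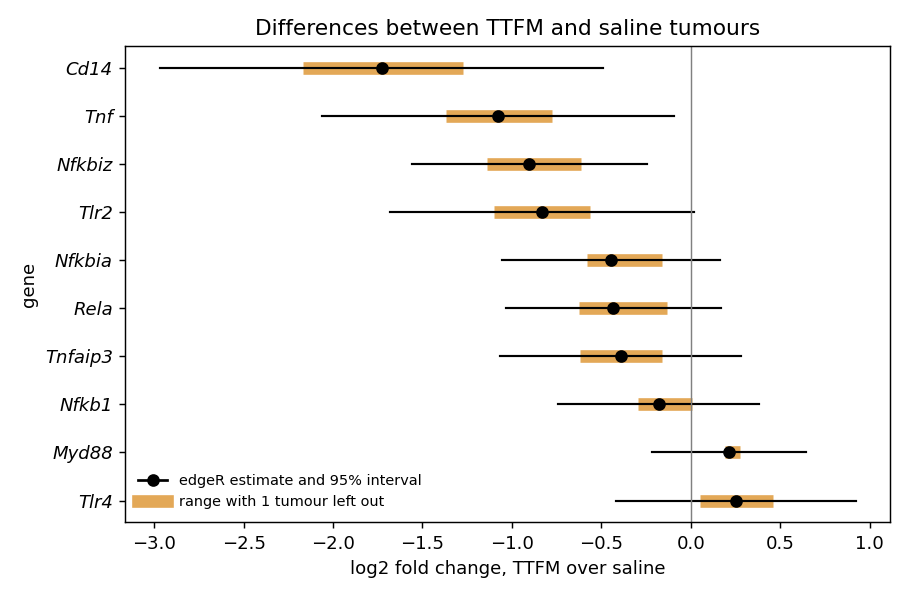
Log2 fold changes, TTFM over saline, of the 10 genes (points) with 95% intervals from edgeR (black lines) and the range of the estimate with 1 tumour left out (orange bars). The intervals of Cd14, Tnf and Nfkbiz lay below 0 before adjustment over all genes; the orange bar of Nfkb1 reached across 0, from -0.29 to 0.0094.

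The subunit genes Rela and Nfkb1 differed less. Rela encodes the transactivating subunit p65. It had 514, 515 and 548 normalised counts in TTFM tumours, against 660.4, 506 and 961 in saline tumours. The 3 TTFM tumours and saline replicate 2 lay between 506 and 548, and saline replicate 3 was the highest. The log2 fold change of -0.43 (95% interval -1.03 to 0.17) stood at -0.13 without saline replicate 3.

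Nfkb1 encodes the precursor p105, from which the subunit p50 is cut, and p105 itself holds back NF-kB. It had 614, 638 and 414 normalised counts in TTFM tumours, against 742, 524 and 621 in saline tumours, with the groups interleaved. The log2 fold change was -0.18 (95% interval -0.74 to 0.38). It was 0.0094 without TTFM replicate 3 and -0.014 without saline replicate 1.

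The feedback genes Nfkbia, Nfkbiz and Tnfaip3 did not share 1 pattern. The 250 bases before the annotated start of Nfkbia and of Tnfaip3 are shown because these 2 feedback genes are textbook targets of NF-kB and held matches to its kappaB consensus, with the matches in capitals. The bases are from RefSeq on GRCm38.p6 and read 5′ to 3′ on the minus strand, ending at the base before the gene's start at chr12:55492648-55492897 for Nfkbia and chr10:19015411-19015660 for Tnfaip3.
Nfkbia: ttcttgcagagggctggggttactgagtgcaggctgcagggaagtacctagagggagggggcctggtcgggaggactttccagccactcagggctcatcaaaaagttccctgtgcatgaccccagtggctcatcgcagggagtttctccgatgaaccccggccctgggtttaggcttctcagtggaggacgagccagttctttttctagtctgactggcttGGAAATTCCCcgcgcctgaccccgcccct
Tnfaip3: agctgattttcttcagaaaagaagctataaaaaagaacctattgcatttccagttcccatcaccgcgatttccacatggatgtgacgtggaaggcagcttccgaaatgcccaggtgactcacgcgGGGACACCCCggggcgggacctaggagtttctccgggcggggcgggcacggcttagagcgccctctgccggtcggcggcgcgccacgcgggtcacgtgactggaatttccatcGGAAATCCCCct
Both strands were searched. The match in Nfkbia begins 29 bases before the start, and those in Tnfaip3 begin 125 and 12 bases before it. RefSeq start windows of 6 of the 10 genes were searched. Tlr4, Nfkb1 and Nfkbiz had no window at hand, and Cd14 was left out of the search. The count of genes with a match therefore does not cover Cd14, Tlr4, Nfkb1 and Nfkbiz. A second annotated start of Tnfaip3 held no match. Of the 6 genes, 3 held a match, Nfkbia, Tnfaip3 and Tlr2, the last with a pair overlapping by all but the end base. Of 32851 windows of the same length over all genes, 3.90% held one. That share counts windows and not genes, and the 6 genes had 7 windows, 2 of them of Tnfaip3. A match is a run of letters, not a measured binding site.

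Nfkbia encodes IkB-alpha, the inhibitor that binds NF-kB and is resynthesised after each round of signalling. It had 894, 670.6 and 762 normalised counts in TTFM tumours, against 788, 974 and 1404 in saline tumours. Saline replicate 3 was well above the rest, and saline replicate 1 lay inside the TTFM range. Means were 776 ± 112 in TTFM and 1055 ± 316 in saline tumours (SD, n = 3 each), a log2 fold change of -0.44 (95% interval -1.05 to 0.17, edgeR adjusted p = 0.910). Without saline replicate 3 it was -0.16.

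Nfkbiz encodes IkB-zeta, a nuclear member of the IkB family that is induced by TLR and interleukin-1 signals and is needed for a second wave of NF-kB targets such as Il6. It had 611, 642 and 595 normalised counts in TTFM tumours, against 1169, 738 and 1546 in saline tumours. The groups did not overlap, and the TTFM tumours lay within a 1.08-fold range while the saline tumours spanned 2.09-fold. Means were 616 ± 24.2 in TTFM and 1151 ± 404 in saline tumours (SD, n = 3 each), a log2 fold change of -0.90 (SE 0.28, edgeR adjusted p = 0.582). The groups stayed apart with each tumour left out in turn and under each scaling tried.

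Tnfaip3 encodes A20, a ubiquitin-editing enzyme that shuts down signalling from TLRs and the TNF receptor. It had 604, 475 and 321 normalised counts in TTFM tumours, against 462, 635 and 739.6 in saline tumours. The groups interleaved, with saline replicate 1 below 2 of the TTFM tumours, so that the saline tumour with the most Cd14 and Tnf had the least Tnfaip3 of its group. The log2 fold change was -0.39 (95% interval -1.07 to 0.28, edgeR adjusted p = 0.940). It stood at -0.16 without TTFM replicate 3, at -0.21 without saline replicate 3 and at -0.62 without TTFM replicate 1.

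**Figure D3:**
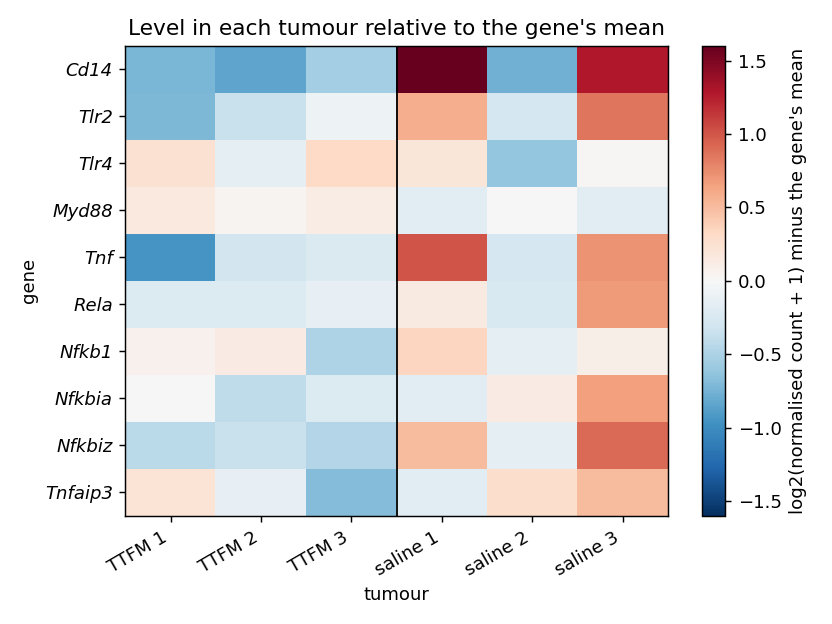
Level of each of the 10 genes in each tumour, as log2(normalised count + 1) minus the gene's mean over the 6 tumours (red above, blue below), with TTFM tumours left of the line and saline tumours right of it. Saline replicates 1 and 3 were red for Cd14 (1.61 and 1.28), Tlr2, Tnf, Rela and Nfkbiz, while saline replicate 2 was blue for these 5 genes. The signs were the same for Tlr4 and Nfkb1, with saline replicate 3 near the mean (0.013 and 0.091).

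In most of the 10 genes the saline tumours were further apart than the TTFM tumours. The highest saline value was further from the lowest, as a fold, than in TTFM tumours in 8 of the 10 genes, against 57.3% of all tested genes; this was not tested. The exceptions were Nfkb1 and Tnfaip3. The median fold between highest and lowest was 1.36 in TTFM and 1.84 in saline tumours over the 10 genes, and 1.55 in TTFM and 1.61 in saline tumours over all tested genes. Saline replicate 3 held the highest value of 5 genes, Tlr2, Nfkbia, Nfkbiz, Rela and Tnfaip3, and saline replicate 1 that of 3, Cd14, Tnf and Nfkb1. Averaged over the 10 genes, the centred log2 level was -0.24, -0.26 and -0.24 in TTFM tumours, against 0.39, -0.21 and 0.56 in saline tumours. Saline replicate 2 was near the TTFM tumours in this average, but not in each gene. It lay inside the TTFM range only for Cd14, Tlr2, Tnf and Nfkb1. For Nfkbia, Nfkbiz and Tnfaip3 it was above that range, and for Tlr4, Myd88 and Rela below it.

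Leaving out saline replicate 2 changed the calls, and no other tumour did. Without it Cd14 passed edgeR's test at a log2 fold change of -2.17 (adjusted p = 0.00892) and Nfkbiz at -1.14 (adjusted p = 0.0431), among 14 genes called (2.23%), of which 13 were lower in TTFM (2.07%). Over all settings tried, the adjusted p ran from 0.00892 to 0.998 for Cd14 and from 0.0431 to 0.998 for Nfkbiz. Tnf (-1.37, adjusted p = 0.0930) and Tlr2 (-1.10, adjusted p = 0.118) did not pass, and Tlr4 was at 0.049. Groups did not overlap in 6 of the 10 genes without that tumour, where 34.9% of tested genes separated. Nothing in the labels sets that tumour apart from the other saline tumours.

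Marker genes of cell types, among them those that carry CD14, differed between the tumours as well. Of 12 monocyte and macrophage markers listed the panel held Csf1r, which had 460, 458 and 532 normalised counts in TTFM tumours, against 379, 503 and 211 in saline tumours. It was thus lowest in saline replicate 3, where Cd14 was high. Of 11 neutrophil markers the panel held Csf3r, Il1r2 and Mpo, which summed to 119 to 161 in TTFM and 248 to 626 in saline tumours. Csf3r had 108, 62.1 and 82.1 in TTFM tumours, against 254, 107 and 438 in saline tumours, with saline replicate 2 inside the TTFM range as for Cd14 but with the highest value in saline replicate 3. Il1r2 had 49.1, 41.1 and 23.3 in TTFM tumours, against 90.5, 88.7 and 172 in saline tumours, without overlap between the groups. Mpo had 3.93, 16.04 and 26.6 in TTFM tumours, against 15.4, 52.3 and 17.2 in saline tumours. These 2 neutrophil markers thus did not place saline replicate 2 with the TTFM tumours. Log2 fold changes were -1.66 for Csf3r, -1.62 for Il1r2 and -0.86 for Mpo, none past the test. The centred log2 ratio of Cd14 to Csf3r overlapped between the groups. It was -0.40, 0.29 and 0.19 in TTFM tumours, against 0.72, -0.42 and -0.39 in saline tumours. The TTFM mean of this ratio minus the saline mean was 0.055, where it was -1.91 for Cd14 to Csf1r. These differences in ratio were not tested.

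Of 10 fibroblast markers 5 were on the panel, and their sum, most of it from collagen genes, was highest in saline replicate 2. It came to 15460 to 22004 in TTFM tumours, and to 7146, 35521 and 2534 in saline replicates 1 to 3. Col1a1, Col1a2, Col3a1 and Pdgfrb were each highest in saline replicate 2, which had the least Cd14, Tlr2, Tnf and Rela of the saline tumours. Pdgfra was not, with 201, 285 and 488 normalised counts in TTFM tumours, against 292, 279 and 179 in saline tumours. T and NK cell markers, 5 of 14 on the panel, summed to 146 to 557 in TTFM and 250.3 to 299 in saline tumours, and endothelial markers, 2 of 8, to 289.8 to 426 in TTFM and 338 to 383 in saline tumours. The dendritic cell marker Flt3 was too low to be tested. The part of these cells in the differences of the 10 genes was not tested.

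**Figure D4:**
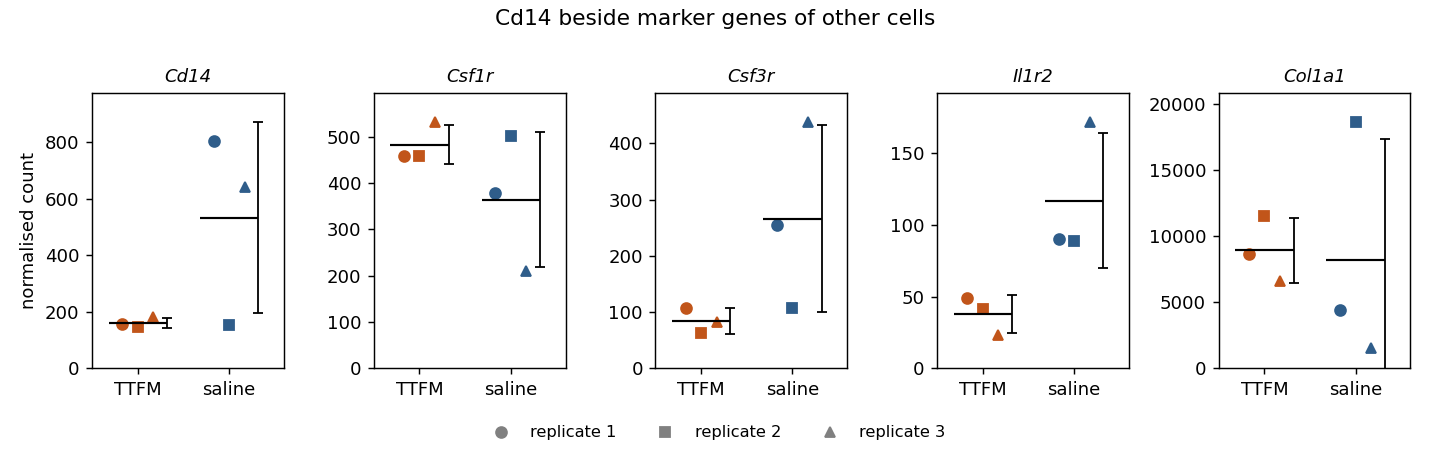
Normalised counts of Cd14 beside Csf1r (monocytes and macrophages), Csf3r and Il1r2 (neutrophils) and Col1a1 (fibroblasts) in TTFM tumours (left, orange) and saline tumours (right, blue), with means and SD bars; the SD bar of Col1a1 in saline tumours is wider than its mean and is drawn only down to 0. In saline replicate 2 Cd14 (154) and Csf3r (107) were the lowest of the saline group, Il1r2 (88.7) was not inside the TTFM range, and Col1a1 was the highest of all tumours.

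Around the 10 genes, other parts of the pathway were read from lists. Among further TLR and interleukin-1 receptor signalling genes 5 of 26 were on the panel, and 3 were negative, with a median log2 fold change of -0.07. The kinase gene Irak2, which carries the signal on from MyD88, stood at -1.30 (SE 0.53), with 137, 150.3 and 283 normalised counts in TTFM tumours and 630, 158 and 616 in saline tumours. Il1rap stood at -0.40, Map3k7, the kinase TAK1, at -0.07 and Irak3 at 0.08. TNF receptor signalling had 6 of 26 genes on the panel, 3 of them negative, with a median of 0.11. The kinase gene Map3k14 stood at 0.33, the caspase gene Casp8 at 0.24, the receptor gene Cd40 at 0.35 and the kinase gene Map3k8 at -0.39. At an unadjusted p under 0.05 were 1 of the 5 TLR genes, lower in TTFM, and 0 of the 6 TNF receptor genes. Of all tested genes 4.47% were lower at that p, and 6.06% were under it in either direction.

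Of the NF-kB subunits, inhibitors and IKK genes 7 of 19 were on the panel, 5 of them negative, with a median of -0.12. Genes of the IKK complex, which marks IkB for destruction, stood at -0.83 for Chuk, -0.51 for Ikbkg and -0.12 for Ikbkb, none past the test. Pias1, a SUMO ligase that can restrain NF-kB on DNA, was the 1 gene here at an unadjusted p under 0.05. Of all tested genes 6.06% were under that p in either direction. Pias1 was higher, with 58.9, 56.1 and 53.3 normalised counts in TTFM tumours and 27.9, 18.2 and 22.3 in saline tumours. The subunit gene Rel stood at 0.02 and Ep300, which encodes a histone acetyltransferase that works with NF-kB, at -0.19.

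NF-kB-regulated cytokine and chemokine genes had estimates on the lower side. All 10 tested had negative values, where 50.1% of all tested genes did, with a median of -0.74. The list was chosen with earlier results of these data known, so this count is not independent of them. The estimate nearest 0 was that of Il12b (-0.10, SE 0.43). Only Il1b was lower in every TTFM tumour than in every saline tumour, where 4.31% of tested genes separated that way. Of the 10, 3 had an unadjusted p under 0.05, where 4.47% of tested genes were lower at that p, the interleukin-1 beta gene Il1b (-1.64) and the neutrophil-attracting chemokine genes Cxcl5 (-1.65) and Cxcl2 (-2.09). Csf3, the granulocyte growth factor gene, stood at -0.81, and Il6 at -0.38 with 11.03 to 13.3 normalised counts in TTFM and 10.3 to 23.9 in saline tumours. Other NF-kB target genes did not follow, with 3 of 9 negative and a median of 0.16. Among these the stress gene Gadd45b stood at -1.50 and the survival gene Bcl2l1 at -0.74, but Myc at 0.34 and the cyclin gene Ccnd1 at 0.41. None of these genes passed edgeR's test over all genes with all 6 tumours. With 1 tumour left out, the median of the cytokine list ran from -0.79 to -0.61. The other medians moved further. With saline replicate 3 left out the subunit and IKK list had a median of 0.087, the TLR list of -0.023, the TNF receptor list of 0.064 and the other targets of 0.012. With saline replicate 2 left out the subunit and IKK list stood at -0.30, with TTFM replicate 1 left out the TLR list stood at -0.27, and with TTFM replicate 3 left out the TNF receptor list stood at 0.27 and the other targets at 0.33. With no filter on low counts the median of the TLR list was 0.0019.

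**Figure D5:**
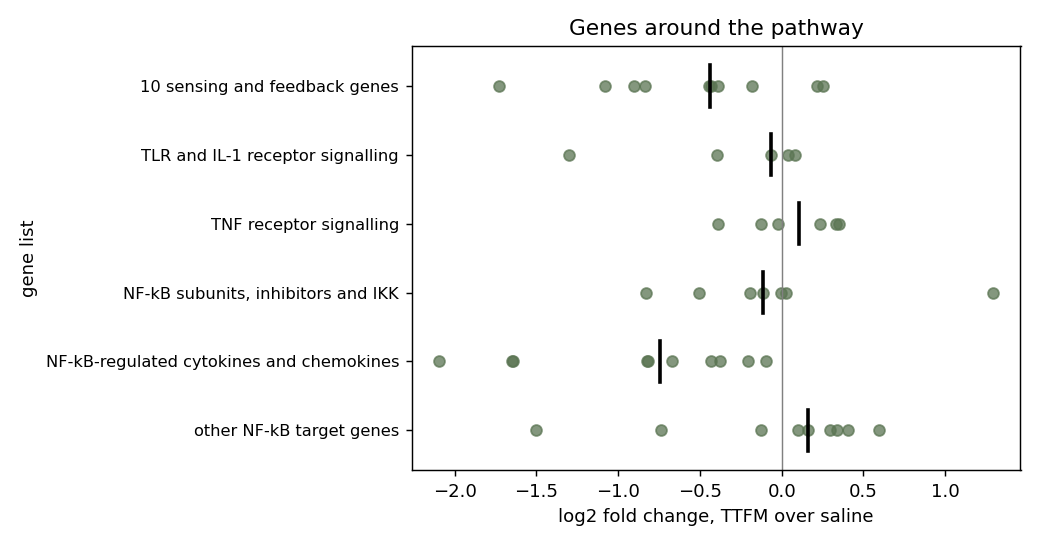
Log2 fold changes, TTFM over saline, of each tested gene (points) in the 10 sensing and feedback genes and in 5 lists of related genes, with the median of each list as a black bar. The medians were -0.44 for the 10 genes and -0.74 for the cytokine and chemokine genes, and lay between -0.12 and 0.16 for the other 4 lists.

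The genes closest in pattern were sought among 362 others with a mean count of at least 100, by the root mean square difference of centred log2 levels over the 6 tumours. Closest to Cd14 were the kinase gene Pim1 (0.28), Gadd45b (0.29) and Irak2 (0.31). Closest to Tnf were the stress gene Ddit4 (0.20), Socs3 (0.26) and Csf3 (0.26), and closest to Nfkbiz were Tet2 (0.15), Smad3 (0.18) and Bcl2l1 (0.18). Tet2, at 0.11, was also the closest to Tlr2. Rela lay nearest to Cdc14a (0.10), Setd2 (0.10) and Stat3 (0.11), while Tnfaip3 lay nearest to the cell cycle kinase gene Wee1 (0.17) and to Il23a (0.21). Among the 10 genes the closest pairs were Tlr2 with Nfkbiz and Tlr2 with Tnf (0.21 each) and Nfkbia with Rela (0.24), and the farthest pair was Cd14 with Myd88 (1.15).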

How the data were processed

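The authors deposited 1 table of 750 genes by 6 tumours, whose values were read as counts from the values alone, since they are whole numbers of at least 1 with totals that differ between samples. The sources used here state no platform, counting step or scaling before deposit, and no control probes were used. Every pair of samples differed by more than sampling noise, and each was kept as 1 replicate. The lowest chi-square per degree of freedom was 7.52, between TTFM replicates 1 and 2. The next was 19.3, between saline replicate 2 and TTFM replicate 2. Such differences cannot tell separate tumours from pieces of the same tumour.

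A mean count of 10 or more was required for testing (627 genes; 123 left out). Counts were scaled by TMM factors and tested with edgeR 4.0.16 (glmQLFit, glmQLFTest) in R 4.3.3, TTFM against saline, with Benjamini-Hochberg adjustment over all tested genes and a threshold of 0.05. SE was taken as the size of the log2 fold change over the square root of the F statistic. Intervals are 95% and use the test's degrees of freedom. The median SE was 0.32. The fit was also run on simulated counts with known changes. Its outcome is not reported here, so that run says nothing about how large a change the test could find.

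The 10 genes and all lists were chosen with earlier results of these data known. The result of 1 marker list is not reported here. Of each pathway list the tested genes of smallest p, up to 4, were named; Ikbkb, Rel, Il6 and the marker genes given by name were chosen after their values were seen. The 3 genes closest in pattern to each of the 10 genes were ranked among those with a mean count of at least 100. Alternatives were DESeq2 1.42.0 and its size factors, limma 3.58.1 with trend, total and upper quartile scaling, other filters, a floor of 20, a replicate block and leaving out each tumour.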

Additional observations from a re-analysis of the deposited data

How the results depend on the processing

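With 3 tumours a group and none known to be technical repeats, small differences were not detectable, and Tnf was limited further by raw counts of 12 to 50. A mean count of at least 50 left Tnf untested.

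The count of genes called was 0 with edgeR under each scaling, filter, the floor and the replicate block, 0 with limma with trend, 1 with the DESeq2 test, and between 0 and 14 when 1 tumour was dropped, 14 being the count without saline replicate 2. Of the 10 genes, 0 were called under each of these except with 1 tumour left out, which gave 0 to 2. Genes of the 10 with no overlap between groups numbered 2, against 1 with the total count, 1 with the upper quartile, 1 with a mean count of at least 50, 3 with the floor, and between 2 and 6 when 1 tumour was dropped, 6 being the count without saline replicate 2. Without TTFM replicate 3 it was 4, and without saline replicate 1 it was 4. The gene that the floor added was Tnf. Its counts in the TTFM tumours and in saline replicate 2 were all under 20 and so became equal. Their order then came from the scaling alone. Over all tested genes the groups did not overlap in 8.29% with all 6 tumours, but in 34.9% without saline replicate 2, 31.7% without TTFM replicate 3, 14% without saline replicate 1 and 11.8% to 13.9% without each of the others. The median log2 fold change of the 10 genes ran from -0.50 to -0.36 under other settings and with 1 tumour left out from -0.59, when TTFM replicate 1 was dropped, to -0.19, when saline replicate 3 was. Nfkb1 turned from -0.18 to 0.0094 without TTFM replicate 3, its lowest being -0.29. It was the 1 gene of the 10 to turn in sign under any setting tried. The cause of these changes was not tested.

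Same-numbered tumours did not deviate together throughout, with correlations of -0.23, 0.44 and 0.26 for numbers 1 to 3, so the numbers were not taken as pairs. With the replicate block 0 genes were called, the median of the 10 genes was -0.41, and Cd14 stood at -1.46, Nfkbiz at -0.84, Tnf at -1.02 and Tlr2 at -0.78.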
